A study of Mus musculus with 9 samples.

Results

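The genes of cholesterol and fatty acid synthesis and their control were compared between LLC cells with and without CD47. The group holds 41 genes chosen by name from the 50813 genes listed: 8 mevalonate steps, 11 steps from squalene to cholesterol, 5 genes of the SREBP system, 9 genes of sterol trafficking, efflux, storage and LXR signaling, and 8 genes of fatty acid synthesis. No measured value entered the choice, but the members were proposed with earlier results of these data known. Of the 41 members, 40 passed the filter on low counts and were tested among 14593 genes. The efflux transporter gene Abcg1 was left out by that filter.

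LLC (Lewis lung carcinoma) is a mouse lung tumor line, and the cells used here stably express luciferase. Polyadenylated RNA was sequenced from 3 libraries of unedited cells (WT), 3 of E3 and 3 of E5, which are clones with CD47 KO, all grown in culture in DMEM with fetal bovine serum. Each KO line was expanded from a cell electroporated with Cas9 ribonucleoprotein directed at Cd47, which encodes a membrane protein that restrains phagocytosis. There was 1 WT line, and E3 and E5 are single clones, so that loss of CD47 and other differences between clones cannot be told apart. The study describes the 3 libraries of each line as independent biological replicates.

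Cholesterol is built from acetyl-CoA through mevalonate, isoprenoids, squalene and a series of sterol intermediates. When sterols in the endoplasmic reticulum are low, SCAP carries the SREBP precursors to the Golgi, where they are cleaved into transcription factors that raise the genes of sterol and fatty acid synthesis. INSIG proteins hold SCAP back when sterols are plentiful, and the LXR nuclear receptors respond to oxysterols by raising efflux genes. Cultured cells can also take up cholesterol from serum, so the level of these transcripts commonly follows sterol supply.

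The promoters of 5 members are shown: those of Acat2, Idi1, Nsdhl and Insig1, on which the results turn, and that of Hmgcs1, which holds the letters of a sterol regulatory element. The sequences are the 250 bases upstream of the annotated start from RefSeq (GRCm38.p6), written 5′ to 3′ in the direction of transcription. Capitals mark the letters TCACNCCAC, the core of a sterol regulatory element that SREBPs bind, and CCAAT or its reverse complement ATTGG, the letters of the NF-Y box.
Hmgcs1 (chr13:119690101-119690350, plus strand): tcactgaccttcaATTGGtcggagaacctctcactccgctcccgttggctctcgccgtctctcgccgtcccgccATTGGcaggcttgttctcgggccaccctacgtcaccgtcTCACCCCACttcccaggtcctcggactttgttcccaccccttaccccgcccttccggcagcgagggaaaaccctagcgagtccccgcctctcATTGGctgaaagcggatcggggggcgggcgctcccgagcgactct
Acat2 (chr17:12960726-12960975, minus strand): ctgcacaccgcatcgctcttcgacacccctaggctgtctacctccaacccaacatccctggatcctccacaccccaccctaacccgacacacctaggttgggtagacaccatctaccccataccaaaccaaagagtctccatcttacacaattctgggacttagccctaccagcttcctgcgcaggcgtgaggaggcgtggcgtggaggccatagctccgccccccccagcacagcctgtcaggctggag
Idi1 (chr13:8885356-8885605, plus strand): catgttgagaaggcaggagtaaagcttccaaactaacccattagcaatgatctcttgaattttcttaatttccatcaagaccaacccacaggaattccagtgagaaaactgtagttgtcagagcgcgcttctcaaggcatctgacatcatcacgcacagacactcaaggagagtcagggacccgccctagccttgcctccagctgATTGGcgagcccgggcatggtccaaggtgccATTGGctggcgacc
Nsdhl (chrX:72918271-72918520, plus strand): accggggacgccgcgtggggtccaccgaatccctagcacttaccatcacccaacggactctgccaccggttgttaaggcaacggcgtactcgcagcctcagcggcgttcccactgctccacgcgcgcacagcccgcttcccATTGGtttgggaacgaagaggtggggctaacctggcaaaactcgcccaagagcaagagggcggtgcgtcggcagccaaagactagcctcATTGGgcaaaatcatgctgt
Insig1 (chr5:28071162-28071411, plus strand): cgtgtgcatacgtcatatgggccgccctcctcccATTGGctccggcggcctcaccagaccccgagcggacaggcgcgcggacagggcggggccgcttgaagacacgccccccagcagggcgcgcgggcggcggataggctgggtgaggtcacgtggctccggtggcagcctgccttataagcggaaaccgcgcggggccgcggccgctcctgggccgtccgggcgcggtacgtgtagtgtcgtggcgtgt

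A window around the start was given for 32 of the 41 members, as 41 windows because some genes have several starts. None was given for Fdps, Fdft1, Sqle, Stard4, Npc1, Abcg1, Scd1, Scd2 and Fads1. The sterol element core was matched on either strand in 1 member, Hmgcs1, with its first base at -137 from the start, against 1.24% of all 32851 windows. CCAAT was matched in 15 of the 19 windows of the cholesterol synthesis steps (78.9%), against 37.4% of all windows. The GC box GGGCGG was also matched in 15 of these 19 windows (78.9%), against 35.7% of all windows. The E-box CACGTG was matched in 3 of them (15.8%), against 7.15% of all windows. None of the 4 motifs contains another. The Acat2 window shown held a GC box and neither the sterol element core nor CCAAT, and an absent match says only that these letters are not in that window.

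Cd47 itself was at 187, 179 and 182 CPM (counts scaled to a common library size) in the WT libraries, 47.4, 36.7 and 49.6 in clone E3, and 15.5, 18.6 and 18.1 in clone E5. Every KO library was below every WT library, as the labels state. Total counts per library ranged from 44257404 to 55095219, and the biological coefficient of variation estimated by edgeR was 14.8%. The fitted median log2 fold change over all genes tested was 0.01 in E3 against WT, -0.00 in E5 against WT and -0.01 in E5 against E3. Epithelial markers differed between the lines: the summed CPM of Krt8, Krt18, Cdh1 and Epcam was 450.5 to 458 in WT, 127 to 198 in E3 and 896 to 957 in E5, with Epcam at 0 in every library. The summed CPM of Vim, Cdh2 and Fn1, which mark mesenchymal cells, was 5935 to 6423, 6133 to 6908 and 7042 to 8440. Vim made up most of this sum, and the 3 genes did not move together. Mean CPM in WT, E3 and E5 was 4166, 5480 and 6571 for Vim and 26.4, 25.8 and 31.4 for Cdh2. For Fn1 it was 1929, 1097 and 1220, with every KO library below every WT library, though neither change passed. Sftpa1, Sftpb and Sftpc of alveolar type II cells were at 0 in every library. The 5 alveolar type II markers summed to 38.2 to 41.9 CPM in WT, 25.6 to 39.9 in E3 and 55.7 to 63.2 in E5. Nearly all of this sum was the single gene Abca3. The 5 haematopoietic markers summed to at most 3.47 CPM in any library, the 4 adipocyte markers to at most 0.434 and the 2 endothelial markers to at most 0.148. Cd3e and Lep were at 0 in every library. In bulk RNA, fewer cells of a type and less RNA per cell cannot be told apart, and the part of these marker differences in the results was not tested.

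2 libraries stood apart for these genes. In clone E3 replicate 3, levels against the other E3 replicates followed transcript length. In clone E5 replicate 3, 7 of the 19 cholesterol synthesis genes were above the WT mean, against 18 and 15 in replicates 1 and 2. Results are therefore given with and without each. E5 replicate 3 was picked by the low levels of these same genes, so leaving it out favors higher counts of them in E5. The counts without E5 replicate 3 are therefore only a description.

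Of the 19 cholesterol synthesis genes, 13 rose in clone E3 and 2 in clone E5. Of the 40 members tested, 18 rose and 1 fell in E3, while 15.7% of all genes tested rose and 14.7% fell. In E5, 6 members rose and 2 fell, against 8.96% and 11.7% of all genes. A gene is said to rise or fall where its FDR was under 0.05 in edgeR. The median log2 fold change of the tested members was 0.52 in E3 and 0.23 in E5. The changes were mostly under 2-fold. With an absolute log2 fold change above 1 as well, the criterion for a DEG, only Acat2 was called higher in E3 and only Abca1 lower in E5, a gene with 0 counts in E5 that passed the filter through the other lines. Over all genes, 5.43% were higher DEGs and 4.39% lower DEGs in E3, and 2.69% and 5.52% in E5. Every E3 library was above every WT library for 20 members and below for 4, against 22.4% and 23% of all genes. Every E5 library was above every WT library for 12 members and below for 6, against 27% and 28.4% of all genes.

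The counts depended on the libraries. Without E3 replicate 3, 22 members rose and 3 fell in E3, against 21.8% and 21.5% of all genes, and 16 rose and 4 fell in E5, against 20.8% and 21.2%. Without E5 replicate 3, 20 members rose in E3 and 13 in E5, against 14.2% and 6.84% of all genes. Without WT replicate 2, 11 rose in E3, against 9.57% of all genes. The 1 member that fell in E3 no longer passed without any 1 WT library, where 9.71% to 10.8% of all genes fell. The 2 members that fell in E5 became 1 without WT replicate 2 or E5 replicate 1, where 7.33% and 7.7% of all genes fell. The 6 members that rose in E5 became 3 without WT replicate 1, and 2 without WT replicate 2, WT replicate 3, E5 replicate 1 or E5 replicate 2. In these fits, 4.52% to 5.15% of all genes rose in E5. In DESeq2 on all libraries, 20 members rose in E3 and 10 in E5, against 17.5% and 11.2% of all genes.

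**Figure D1:**
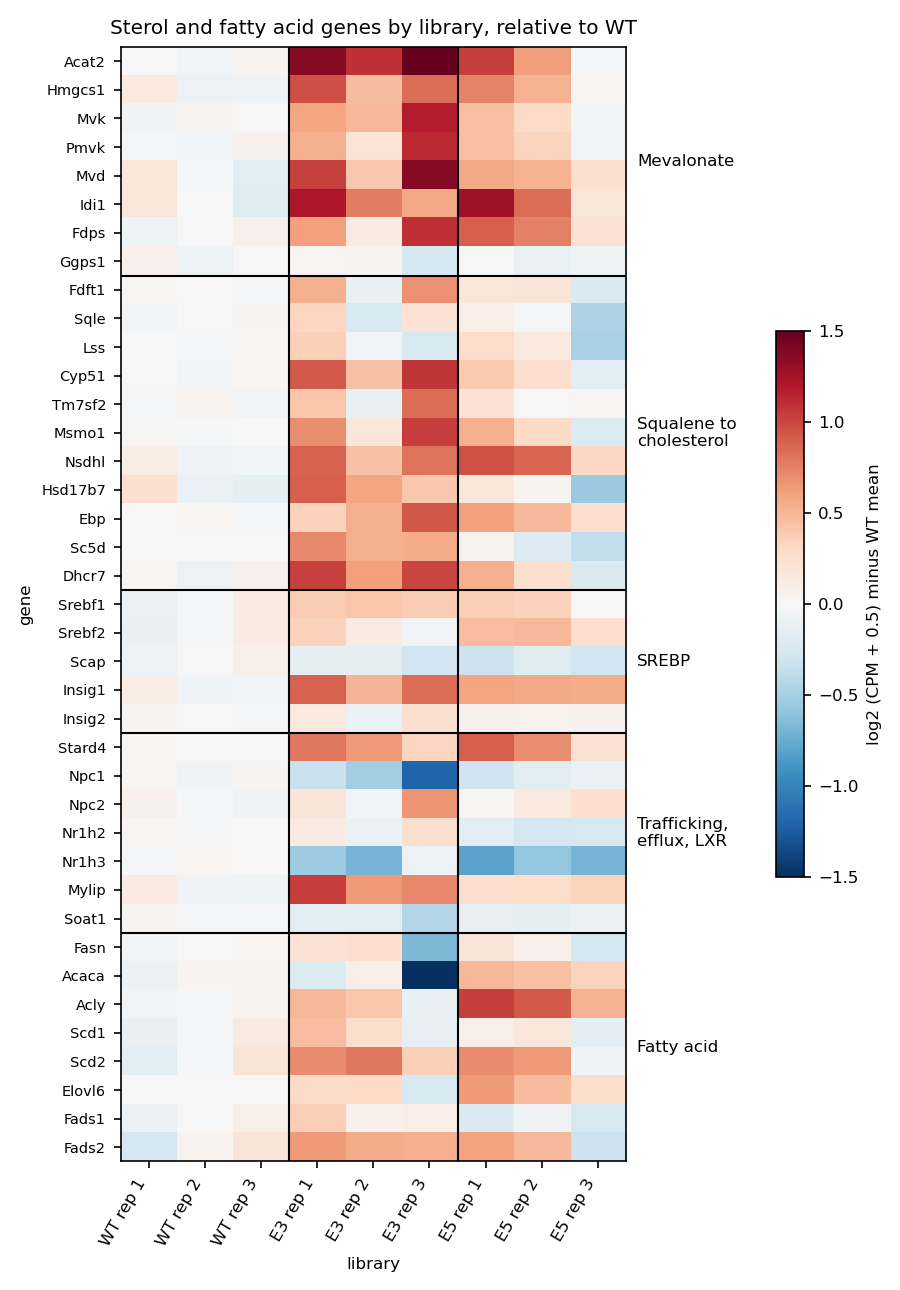
Level of each member in each library, as log2 (CPM + 0.5) minus the mean of the 3 WT libraries (color), with genes in rows by role and libraries in columns. The 39 members tested other than Abca1 are shown, and the red block of mevalonate and late sterol steps in E3 pales from E5 replicate 1 to E5 replicate 3, whose median over the 19 cholesterol steps was -0.05.

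The mevalonate steps were the most raised group in clone E3. Of 8 genes, 6 rose in E3 (Acat2, Hmgcs1, Mvk, Pmvk, Mvd and Idi1) and 1 rose in E5 (Idi1), with median log2 fold changes of 0.79 and 0.46. No mevalonate gene fell in edgeR in either clone, at an unadjusted p under 0.05 or in DESeq2. Acat2 (ENSMUSG00000023832, chromosome 17 from 13161777 to 13179634 in GRCm39, minus strand) encodes the cytosolic thiolase that joins 2 acetyl-CoA units. Acat2 was at 26.6, 25.9 and 27.4 CPM in WT, 69.3, 57.5 and 78.9 in E3, and 55, 41.2 and 26.1 in E5. All E3 libraries were above all WT libraries, while E5 replicate 3 lay among the WT libraries and the other E5 libraries above them. In log2 terms the change was 1.37 ± 0.23 (SE, n = 3) in E3, with an edgeR adjusted p of 0.00139. In E5 it was 0.61 ± 0.22 and did not pass, with an edgeR adjusted p of 0.0784. Acat2 passed in E3 under every alternative run.

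Idi1 (ENSMUSG00000058258, chromosome 13 from 8935537 to 8942487, plus strand) encodes the isomerase of isopentenyl diphosphate. Its CPM was 15, 13.1 and 11.6 in WT, 31.0, 22.9 and 19.9 in E3, and 32.5, 24.0 and 14.9 in E5. The E3 libraries were all above WT, and the lowest E5 library fell among the WT libraries. Idi1 had a log2 fold change of 0.90 ± 0.26 in E3 (edgeR adjusted p = 0.0244) and 0.85 ± 0.26 in E5 (edgeR adjusted p = 0.0422). The E3 call was lost without WT replicate 2, WT replicate 3 or E3 replicate 1, with an adjusted p of up to 0.0957. The E5 call was lost with a minimum of 10 counts set for each library and without any 1 WT library, E3 replicate 2, E5 replicate 1 or E5 replicate 2, with an adjusted p of up to 0.182.

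Hmgcs1, which encodes the synthase that makes HMG-CoA and carries the sterol element core shown above, had a mean of 101 CPM in WT, 172 in E3 and 138 in E5. Its log2 fold change was 0.77 in E3, which passed, and 0.46 in E5, which did not. Mvk, Pmvk and Mvd encode the kinases and the decarboxylase that turn mevalonate into isopentenyl diphosphate. Mvk went from a mean of 18.7 CPM in WT to 32.7 in E3 and Mvd from 18.1 to 36.0, with log2 fold changes of 0.80 and 0.99. Pmvk had means of 17.4 and 28.0 CPM and a log2 fold change of 0.68. In E5 the log2 fold changes of these 3 genes were 0.25, 0.46 and 0.27 for Mvk, Mvd and Pmvk, and none passed. The Pmvk call in E3 was lost with only the 2 groups compared, without any 1 WT library and without E5 replicate 2, with an adjusted p of up to 0.102. Fdps, which encodes farnesyl diphosphate synthase, stood at 97.7 to 109 CPM in WT, 113 to 222 in E3 and 121 to 193 in E5. Both clones lay above WT in every library, but the log2 fold changes of 0.67 and 0.66 did not pass (edgeR adjusted p = 0.0512 and 0.0714). Fdps passed in E5 without E3 replicate 3 (0.66, edgeR adjusted p = 0.00489). Ggps1, whose product leads toward protein prenylation and not toward sterols, stood at -0.06 on the log2 scale in either clone, and did not pass. Without E3 replicate 3 the same 6 mevalonate genes rose in E3, and 5 rose in E5 (Acat2, Hmgcs1, Mvd, Idi1 and Fdps). Without E5 replicate 3, 7 rose in E3 and 4 in E5.

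From squalene to cholesterol, most of the late steps rose in E3, while the first 3 steps and Tm7sf2 did not pass. Of 11 genes, 7 rose in E3 (Cyp51, Msmo1, Nsdhl, Hsd17b7, Ebp, Sc5d and Dhcr7) and 1 rose in E5 (Nsdhl). The median log2 fold change was 0.66 in E3 and 0.09 in E5. No gene of this group fell in edgeR in either clone, at an unadjusted p under 0.05 or in DESeq2. Dhcr7 (ENSMUSG00000058454, chromosome 7 from 143376882 to 143402147, plus strand) encodes the reductase that turns 7-dehydrocholesterol into cholesterol. Dhcr7 was at 23.6, 21.8 and 24.5 CPM in WT, 47.8, 35.9 and 47.2 in E3, and 34.0, 27.6 and 19.9 in E5. The E3 libraries were all above WT, and E5 lay on both sides of it. Dhcr7 had a log2 fold change of 0.90 ± 0.18 (SE, n = 3) in E3 (edgeR adjusted p = 0.00416) and 0.22 ± 0.18 in E5 (edgeR adjusted p = 0.446). The E3 call held under every alternative run.

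Nsdhl (ENSMUSG00000031349, chromosome X from 71962163 to 72002120, plus strand) encodes a dehydrogenase that takes part in removing the C4 methyl groups of sterols. Its CPM was 19.6, 17.2 and 17.5 in WT, 33.9, 24.7 and 32.1 in E3, and 35.5, 33.5 and 22.5 in E5. Both clones were above WT in every library, which no other gene of this group but Ebp showed. Nsdhl had a log2 fold change of 0.74 ± 0.18 in E3 (edgeR adjusted p = 0.01) and 0.75 ± 0.18 in E5 (edgeR adjusted p = 0.0127). The E5 call was lost without WT replicate 2, WT replicate 3, E5 replicate 1 or E5 replicate 2, with an adjusted p of up to 0.0623.

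Cyp51, the sterol demethylase gene, had means of 70.7 CPM in WT, 127 in E3 and 79.8 in E5, and a log2 fold change of 0.84 in E3 and of 0.17 in E5. Sc5d, which encodes the desaturase just before Dhcr7, had means of 79.5, 122 and 71.2 CPM. Its log2 fold change was 0.61 in E3, which passed, and -0.16 in E5, which did not, with E5 replicate 1 above WT and the other E5 libraries below. Ebp, the sterol isomerase gene, had a log2 fold change of 0.67 in E3 and of 0.49 in E5, with means of 6.59, 10.5 and 9.23 CPM. Msmo1, which encodes the methyl sterol oxidase, had means of 66.3, 107 and 78.6 CPM and a log2 fold change of 0.68 in E3. Hsd17b7, a sterol ketone reductase gene, had means of 9.42, 14.9 and 8.81 CPM and a log2 fold change of 0.66 in E3. The Msmo1 call was lost without E3 replicate 3 (0.46, edgeR adjusted p = 0.0573), without any 1 WT library, and without E3 replicate 1 or E5 replicate 2. The Hsd17b7 call was lost without WT replicate 2, WT replicate 3, E3 replicate 1, E3 replicate 2 or E5 replicate 2, with an adjusted p of up to 0.13.

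The first 3 genes of this stretch did not pass in either clone. Fdft1, Sqle and Lss encode squalene synthase, squalene epoxidase and lanosterol synthase. Their log2 fold changes were 0.41, 0.12 and 0.05 in E3, and 0.06, -0.10 and 0.02 in E5. Sqle stood at 137 to 146 CPM in WT, 121 to 177 in E3 and 103 to 152 in E5, so that all 3 lines overlapped. Tm7sf2, a sterol reductase gene, had log2 fold changes of 0.46 and 0.09, and also did not pass. Over all 19 cholesterol synthesis steps, 13 rose in E3 with a median of 0.68, and 2 rose in E5 with a median of 0.24. Without E3 replicate 3 these counts were 12 and 7, and without E5 replicate 3 they were 14 and 5. The 2 in E5 became 1 without WT replicate 1, and 0 without WT replicate 2, WT replicate 3, E5 replicate 1 or E5 replicate 2. In E5, 6 of the 19 were higher in edgeR at an unadjusted p under 0.05 with all libraries, and 5 rose in DESeq2.

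**Figure D2:**
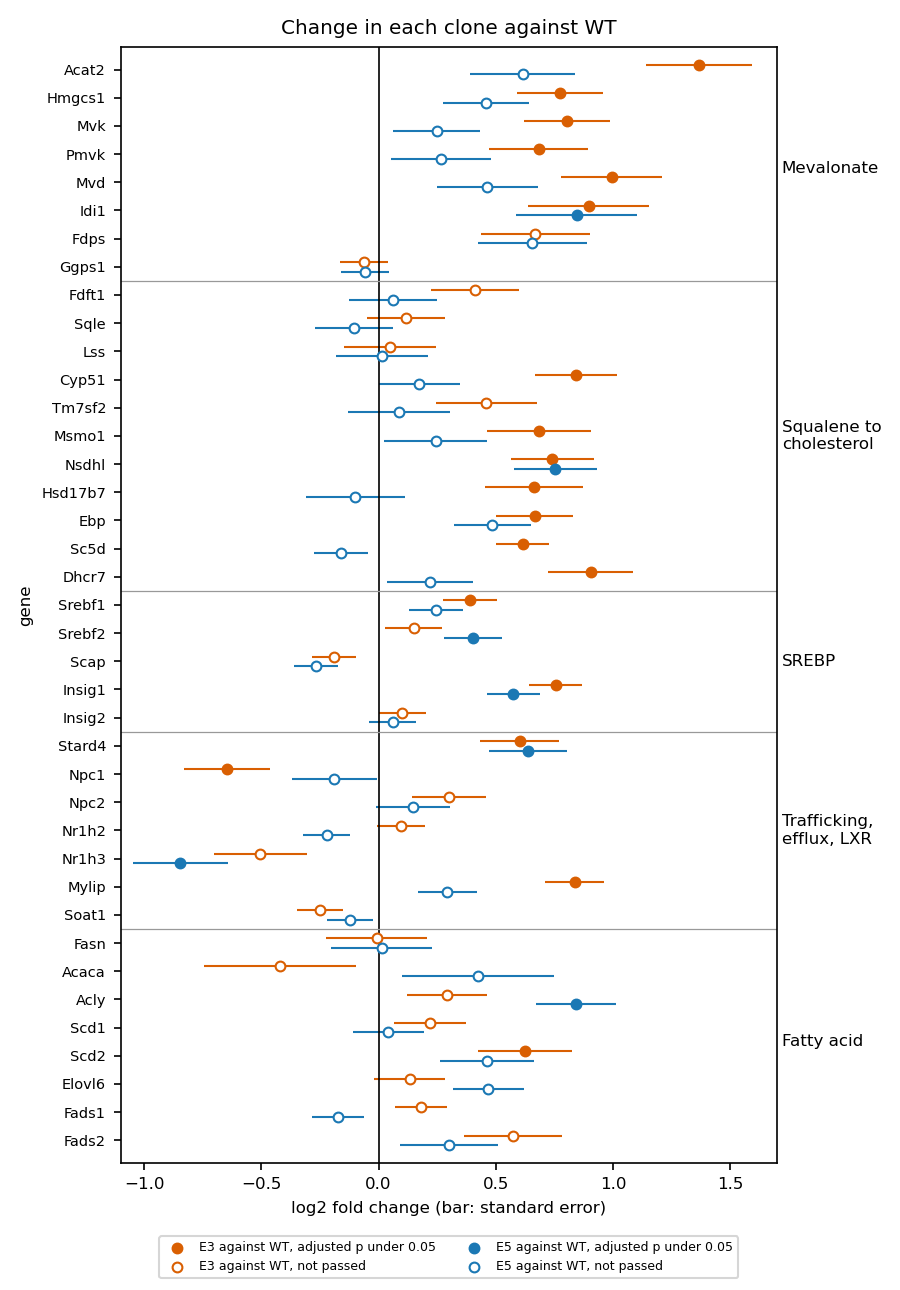
Log2 fold change against WT (x axis) for the 39 members tested other than Abca1, in clone E3 (orange) and clone E5 (blue), with bars of 1 standard error. Filled points passed an adjusted p of 0.05 in edgeR: 18 genes in E3 lie to the right of 0 and Npc1 to the left, and 6 genes in E5 lie to the right and Nr1h3 to the left.

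In the SREBP system, the sterol sensor gene Insig1 was the member that rose in both clones. Of 5 genes, 2 rose in E3 (Srebf1 and Insig1) and 2 in E5 (Srebf2 and Insig1), with medians of 0.15 and 0.25. Insig1 (ENSMUSG00000045294, chromosome 5 from 28276361 to 28283660, plus strand) encodes a protein that retains SCAP in the endoplasmic reticulum and is itself a known SREBP target. Insig1 was at 100.3, 88.5 and 90.1 CPM in WT, 172, 133 and 167 in E3, and 141, 138 and 137 in E5. Every KO library was above every WT library, and the 3 E5 libraries lay close together, replicate 3 included. For Insig1 the log2 fold change was 0.76 ± 0.11 in E3 (edgeR adjusted p = 0.000772) and 0.57 ± 0.11 in E5 (edgeR adjusted p = 0.0049). Both calls held under every alternative run.

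Srebf1, which encodes the SREBP most tied to fatty acid genes, had means of 135, 177 and 160 CPM in WT, E3 and E5, and a log2 fold change of 0.39 in E3 and 0.25 in E5. Srebf2, which encodes the SREBP most tied to sterol genes, had means of 293, 325 and 387 CPM, with 0.15 in E3 and 0.40 in E5. The Srebf1 call in E3 was lost without WT replicate 1, WT replicate 2, E3 replicate 1 or E3 replicate 2, with an adjusted p of up to 0.107. The Srebf2 call in E5 was lost with no filter on low counts and without any 1 WT library, E5 replicate 1 or E5 replicate 2, with an adjusted p of up to 0.161. Scap, the escort gene, had log2 fold changes of -0.19 and -0.27 with every KO library below every WT library, and did not pass with all libraries. Without E3 replicate 3, Scap fell in E5 (-0.26, edgeR adjusted p = 0.0063). Insig2, the second INSIG gene, had log2 fold changes of 0.10 and 0.06 and did not pass.

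Among genes of sterol trafficking, efflux, storage and LXR signaling, members moved in both directions. Of the 8 tested, 2 rose (Stard4 and Mylip) and 1 fell (Npc1) in E3, and 1 rose (Stard4) and 2 fell (Abca1 and Nr1h3) in E5. Of all genes, 15.7% rose and 14.7% fell in E3, and 8.96% rose and 11.7% fell in E5, so these small counts are not far from those shares. The medians of the 8 genes were 0.20 in E3 and -0.16 in E5. Mylip (ENSMUSG00000038175, chromosome 13 from 45543218 to 45565498, plus strand) encodes a ubiquitin ligase for lipoprotein receptors and is a known LXR target. Mylip was at 10.9, 9.57 and 9.37 CPM in WT, 20.8, 15.7 and 16.7 in E3, and 11.9, 12.0 and 12.6 in E5. Every E3 library was above every E5 library, and every E5 library above every WT library. The log2 fold change was 0.84 ± 0.13 in E3 (edgeR adjusted p = 0.000819) and 0.29 ± 0.13 in E5 (edgeR adjusted p = 0.131). The E3 call held under every alternative run, and Mylip also rose in E5 without E3 replicate 3 (0.30, edgeR adjusted p = 0.045).

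The efflux transporters were near the limit of detection. Abca1 (ENSMUSG00000015243, chromosome 4 from 53030787 to 53159895, minus strand) had 12, 10 and 11 counts in the WT libraries, 35, 36 and 7 in E3, and 0 in every E5 library. The most a count of 0 allows was taken as 3 counts per library. Against that level in E5, the observed mean was 3.77-fold higher in WT and 8.92-fold higher in E3. Only the E5 side is bounded so, and the E3 mean includes replicate 3, with 7 counts. Abca1 passed the filter on low counts only through the libraries of WT and E3, where it was higher, so its call in E5 is given as a description. It passed in edgeR with the filter (adjusted p = 0.0137) and without it (adjusted p = 0.000503). It was not tested with only E5 and WT compared or with a minimum of 10 counts set for each library. Its fitted log2 fold change of -6.47 ± 1.43 depends on how a 0 is handled. At its bound Abca1 remains the lowest member of the group in E5, so the group median is the same. In E3 the log2 fold change of 1.24 ± 0.54 did not pass (edgeR adjusted p = 0.12), and without replicate 3, the library with 7 counts, it was 1.67 (edgeR adjusted p = 0.00234). Abcg1, the other efflux gene, had 8, 9 and 19 counts in WT, 1, 1 and 0 in E3, and 1, 4 and 1 in E5, and was not tested.

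Nr1h3, which encodes LXR alpha, had means of 3.00 CPM in WT, 2.12 in E3 and 1.67 in E5. Its log2 fold change was -0.84 in E5, which passed, and -0.50 in E3, which did not. The E5 call was lost without WT replicate 2 or E5 replicate 1, with an adjusted p of up to 0.059, and Nr1h3 fell in E3 as well without E3 replicate 3 (-0.75, edgeR adjusted p = 0.00324). Nr1h2, which encodes LXR beta, had log2 fold changes of 0.10 and -0.22 and did not pass, but fell in E5 without E3 replicate 3 (-0.22, edgeR adjusted p = 0.0205). Stard4, whose product carries cholesterol between membranes, rose in both clones, with means of 51.4, 77.9 and 79.9 CPM and log2 fold changes of 0.60 and 0.64. Its calls were lost without any 1 WT library, the E3 call also without E3 replicate 1 and the E5 call also without E5 replicate 1 or E5 replicate 2, with adjusted p values of up to 0.0737 and 0.104. Npc1, the lysosomal cholesterol exporter gene, had means of 66.1, 42.3 and 58.0 CPM and a log2 fold change of -0.64 in E3 and -0.19 in E5. Its E3 level was 52.3, 46.0 and 28.5 CPM, and the value without replicate 3 was -0.43 (edgeR adjusted p = 0.00104). The Npc1 call was lost with only the 2 groups compared and without any 1 WT library, with an adjusted p of up to 0.073. Npc2, which works with Npc1, had log2 fold changes of 0.30 and 0.15, and Soat1, which esterifies cholesterol for storage, -0.25 and -0.12, and neither gene passed. Soat1 fell in E3 without E3 replicate 3 (-0.17, edgeR adjusted p = 0.0415).

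Among 8 fatty acid genes, 1 rose in E3 (Scd2) and 1 rose in E5 (Acly), against 15.7% and 8.96% of all genes. These counts are not far from the shares of all genes. The median log2 fold change was 0.20 in E3 and 0.36 in E5, beside 0.68 and 0.24 for the cholesterol steps. No fatty acid gene fell in edgeR in either clone, at an unadjusted p under 0.05 or in DESeq2. Acly (ENSMUSG00000020917, chromosome 11 from 100367179 to 100418826, minus strand) encodes ATP citrate lyase, the source of cytosolic acetyl-CoA for both pathways. Acly was at 199, 202 and 212 CPM in WT, 289, 272 and 189 in E3, and 418, 387 and 294 in E5. All E5 libraries were above all WT libraries, and E3 replicate 3 was below them. The log2 fold change was 0.84 ± 0.17 in E5 (edgeR adjusted p = 0.00616) and 0.29 ± 0.17 in E3 (edgeR adjusted p = 0.227). The E5 call held under every alternative run, and Acly rose in E3 as well without E3 replicate 3 (0.46, edgeR adjusted p = 0.00822).

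Scd2 (ENSMUSG00000025203, chromosome 19 from 44282113 to 44295303, plus strand) encodes a stearoyl-CoA desaturase. Scd2 was at 959.7, 1058 and 1233 CPM in WT, 1761, 1872 and 1382 in E3, and 1758, 1684 and 1036 in E5. The E3 libraries were above WT, and E5 replicate 3 lay among the WT libraries. For Scd2 the log2 fold change was 0.63 ± 0.20 in E3 (edgeR adjusted p = 0.0377) and 0.46 ± 0.20 in E5 (edgeR adjusted p = 0.134). The E3 call was lost without any 1 WT library, E3 replicate 1, E3 replicate 2 or E5 replicate 2, with an adjusted p of up to 0.133.

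Fasn and Acaca encode fatty acid synthase and acetyl-CoA carboxylase, the core of the pathway. Fasn had log2 fold changes of -0.01 and 0.01, and Acaca -0.42 and 0.42, and neither gene passed. Acaca was at 109, 133 and 39.7 CPM in E3 against 117 to 130.3 in WT and 158 to 177 in E5. Its low value in E3 came from replicate 3, and without that library Acaca rose in E5 (0.43, edgeR adjusted p = 0.00128) and was at -0.06 in E3. Elovl6, a chain elongase gene, had log2 fold changes of 0.13 and 0.47, the second with an edgeR adjusted p of 0.0505. Scd1 had 0.22 and 0.04, and the desaturase genes Fads1 and Fads2 0.18 and -0.17, and 0.57 and 0.30, and none of these passed. Without E3 replicate 3, 5 fatty acid genes rose in E3 (Acly, Scd1, Scd2, Elovl6 and Fads2) and 4 in E5 (Acaca, Acly, Scd2 and Elovl6). Without E5 replicate 3, the counts were 2 in E3 (Scd2 and Fads2) and 4 in E5 (Acly, Scd2, Elovl6 and Fads2).

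**Figure D3:**
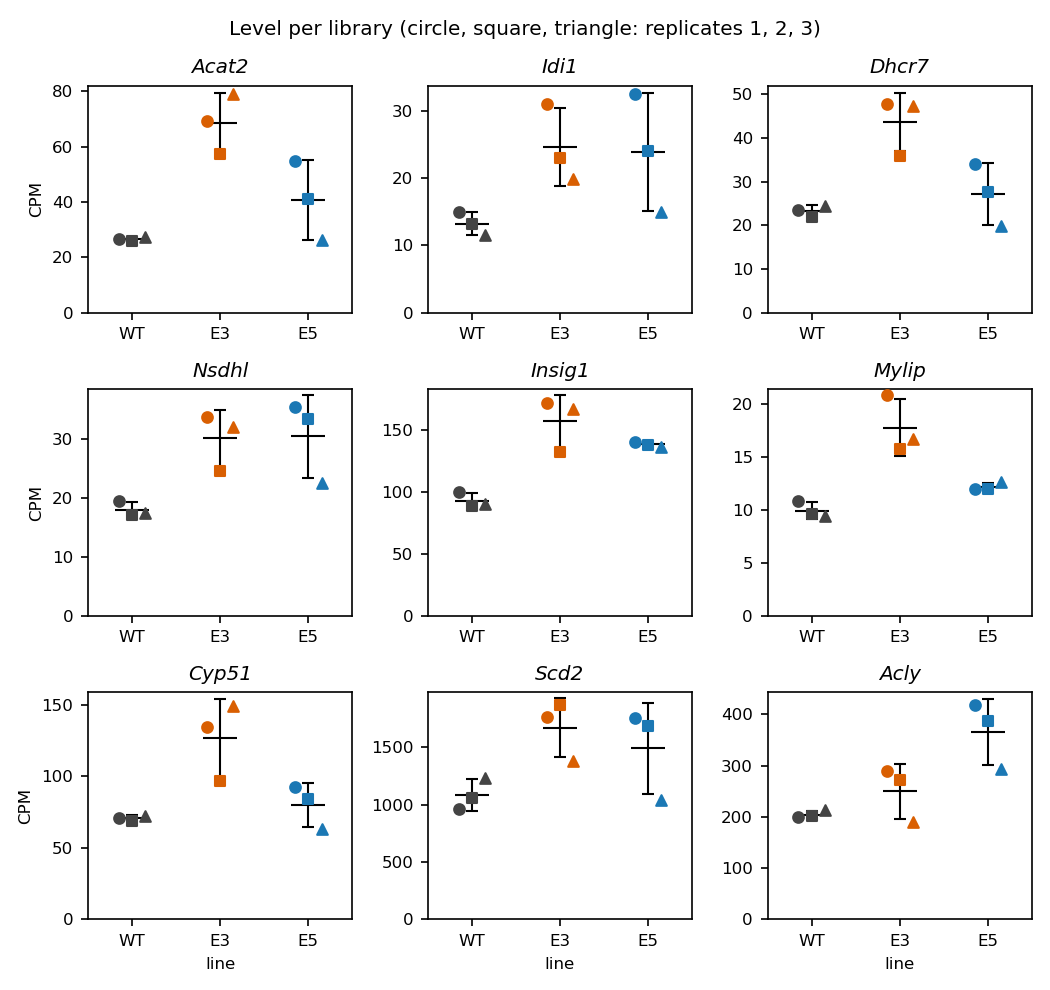
CPM of 9 members in each library (circle, square and triangle for replicates 1, 2 and 3), with a dash at the mean and bars of 1 SD, by line. The E3 points of Acat2, Dhcr7 and Cyp51 lie above WT, the E5 points of Acly lie above WT, and the E5 triangle is the lowest of its line for every gene but Mylip.

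The sterol genes varied together in clone E5, and only in part in clone E3. The median over the 19 cholesterol steps, as log2 difference from the WT mean, was 0.70, 0.44 and 0.84 in the E3 libraries and 0.45, 0.28 and -0.05 in the E5 libraries. Their summed CPM was 871 to 900 in WT, 1425, 1066 and 1500.4 in E3, and 1235, 1097 and 810 in E5. E5 replicate 3 was therefore below the WT range in sum. E5 replicate 1 was the highest of its line for 18 of the 19 genes, and replicate 3 the lowest for 17. Over all genes above 1 CPM, these libraries were highest and lowest for 37.4% and 38.4%. E3 replicate 2 was the lowest of its line for 14 of the 19 genes, against 32.4% of all genes. In E3 replicate 3 the 19 genes diverged. Their log2 differences from the mean of E3 replicates 1 and 2 ran from -0.42 for Idi1 to 0.74 for Pmvk. The median SD of log2 levels for the 19 genes was 0.05 in WT, 0.30 in E3 and 0.30 in E5, while over all genes it was 0.07, 0.24 and 0.09. The fatty acid genes were also ordered within lines. E5 replicate 3 was the lowest of its line for 8 of 8, and E3 replicate 3 for 7 of 8, against 38.4% and 44.9% of all genes. WT replicate 1 was the lowest and WT replicate 3 the highest for 8 of 8, against 43.9% and 36.5%. The genes share their libraries, so these counts describe the libraries and are not independent.

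**Figure D4:**
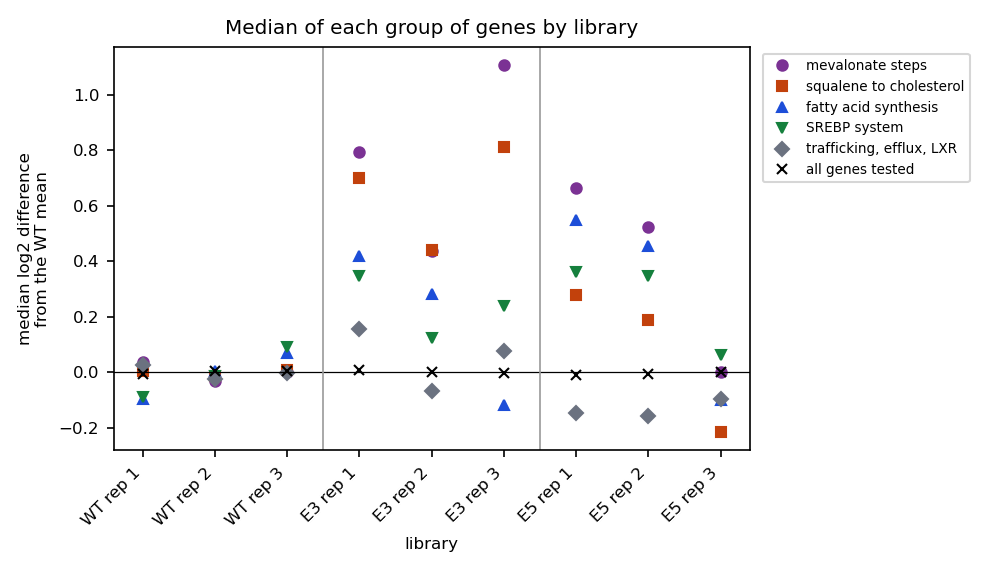
Median log2 difference from the WT mean (y axis) for each group of members and for all genes tested, by library (x axis). The mevalonate and squalene groups stand highest in the E3 libraries, and E5 replicate 3 has the lowest of both in its line, while the median of all genes tested stays within 0.01 of the WT mean, at 0.01 in E3 replicate 1.

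Clone E3 replicate 3 differed from the other E3 replicates by transcript length. Among 11685 genes above 1 CPM, the median log2 difference between replicate 3 and the mean of replicates 1 and 2 was 0.47, 0.19, -0.04, -0.27 and -0.68 over 5 equal groups of genes from the shortest to the longest canonical transcript. Spearman's rho with length was -0.71 over these genes and -0.78 over the 40 members tested, as a description of 1 library. The short transcripts Pmvk, Fdps and Tm7sf2 were at 0.74, 0.73 and 0.70, and the long transcripts Acaca, Fasn and Npc1 at -1.59, -0.91 and -0.77. Several members departed from this trend: Mvk, at 4911 bases, was at 0.63, and Idi1, at 2590 bases, at -0.42. Without this library, the median log2 fold change in E3 was 0.65 for the mevalonate genes, 0.48 from squalene to cholesterol and 0.33 for the fatty acid genes, against 0.79, 0.66 and 0.20 with it. The sterol groups remained the higher in both.

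**Figure D5:**
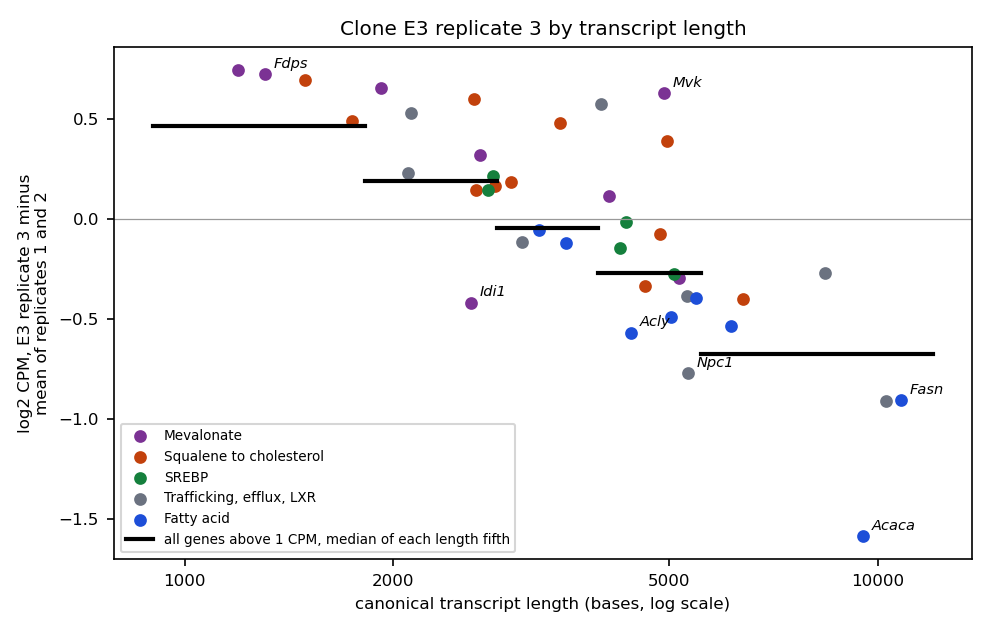
Log2 CPM in E3 replicate 3 minus the mean of E3 replicates 1 and 2 (y axis) against canonical transcript length in bases (x axis, log scale) for the 40 members tested, colored by role. Black lines are the medians of all genes above 1 CPM in 5 groups by length, which run from 0.47 to -0.68, and the long transcripts Acaca, Abca1 and Fasn lie lowest.

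The clones were also compared with each other directly. Of the 40 members tested, 1 was higher in E5 than in E3 (Acly) and 10 were lower, against 14.7% and 17.2% of all genes. With upper-quartile scaling, the shares of all genes were 11.7% and 20.9%, and the members' counts were 1 and 10. Among the 19 cholesterol steps, none was higher in E5 by edgeR, at an unadjusted p under 0.05 or by DESeq2, and 6 were lower. These were Acat2, Mvk, Cyp51, Hsd17b7, Sc5d and Dhcr7, with log2 fold changes of E5 against E3 from -0.56 for Mvk to -0.77 for Sc5d. Sc5d had the smallest adjusted p of them in edgeR (-0.77 ± 0.11, adjusted p = 0.000638), and each of its E5 libraries was below each E3 library. The other members lower in E5 were Abca1, Nr1h2, Mylip and Fads1. Abca1 passed the filter on low counts only through WT and E3, so its call here is also only a description. As DEGs in edgeR, 1 member was lower in E5 (Abca1) and none was higher, against 7.52% and 3.49% of all genes. Whatever the size of the change, 4 members were higher at an unadjusted p under 0.05 and 2 in DESeq2. The count of members lower in E5 became 5 without E3 replicate 1, 16 without E3 replicate 2, 5 without E5 replicate 2 and 4 without E5 replicate 3. It was 10 without E3 replicate 3. In the same order, the shares of all genes lower in E5 were 15.5%, 18.6%, 11.9%, 12.5% and 21.7%. Cyp51 was lost without E5 replicate 3, Dhcr7 without E3 replicate 1 or E5 replicate 2, Hsd17b7 without E3 replicate 1 or E5 replicate 3, and Acat2 without E3 replicate 1, E5 replicate 2 or E5 replicate 3, with adjusted p values of up to 0.0606, 0.0523, 0.0694 and 0.0755. Mvk was lost without any 1 WT library, E3 replicate 3, E5 replicate 2 or E5 replicate 3, with an adjusted p of up to 0.152. Acly was lost without any 1 WT library, E5 replicate 1 or E5 replicate 2, with an adjusted p of up to 0.122. Nr1h2 was lost without any 1 library other than E3 replicate 2 and E3 replicate 3 (adjusted p of up to 0.12). Fads1 was lost without WT replicate 2, WT replicate 3, E3 replicate 1 or any 1 E5 library (adjusted p of up to 0.117). With only the 2 clones compared, Acat2, Mvk, Acly, Nr1h2 and Fads1 were lost, and with no filter Nr1h2 and Fads1.

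Nsdhl, Idi1, Fdps and Stard4 were at nearly the same level in both clones, with log2 fold changes of E5 against E3 of 0.01, -0.05, -0.01 and 0.04 and standard errors of 0.17, 0.25, 0.23 and 0.17. These errors leave room for a difference, and a p above the threshold does not show equal levels.

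Per kilobase of canonical transcript, Scd2 was the most abundant member in WT, at 199 CPM per kilobase, followed by Scd1 at 83.1 and Fdps at 79.2. Srebf2 and Fads1, at 57.7 and 57.6, did not differ beyond their spread. The cholesterol steps ranged from 2.04 CPM per kilobase for Hsd17b7 to 79.2 for Fdps in WT, with Sqle second at 50.5. Abca1 and Abcg1 were the lowest members, at 0.0222 and 0.0428.

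4 lists of related genes, 77 in all, were described beside the members. They were fixed with earlier results of these data known. Their counts are to be read against the shares of all genes, 15.7% higher and 14.7% lower in E3 and 8.96% and 11.7% in E5. Those shares were 21.8%, 21.5%, 20.8% and 21.2% without E3 replicate 3, and 14.2%, 13.4%, 6.84% and 9.13% without E5 replicate 3. Among 12 genes that process SREBPs or degrade sterol sensors, 5 fell in E3, among them Erlin1 and Paqr3, and 2 fell in E5 (Erlin1 and Paqr3). None rose in edgeR in either clone. At an unadjusted p under 0.05, 1 rose in E3 and none in E5, with the same counts in DESeq2. Paqr3, which encodes a Golgi protein known to bind SCAP and the SREBPs, was a lower DEG in both clones. Paqr3 was at 28.5, 26.6 and 22.4 CPM in WT, 6.82, 6.95 and 5.61 in E3, and 5.58, 6.96 and 11.0 in E5, without overlap. Its log2 fold change was -1.998 ± 0.22 in E3 (edgeR adjusted p = 0.000156) and -1.72 ± 0.22 in E5 (edgeR adjusted p = 0.000366). Erlin1, named after its values were seen, encodes a cholesterol-binding endoplasmic reticulum protein and had log2 fold changes of -0.996 and -0.82. Without E3 replicate 3, 1 gene of the list rose and 5 fell in E3, and 1 rose and 3 fell in E5. Without E5 replicate 3, 5 fell in E3 and 2 in E5.

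Among 12 genes of isoprenoid branches, 1 rose and 3 fell in E3, and 1 rose and none fell in E5. At an unadjusted p under 0.05, 2 fell in E5, and 1 fell in DESeq2. With E3 replicate 3 left out, 2 rose and 6 fell in E3, and 2 rose and 3 fell in E5. With E5 replicate 3 left out, 1 rose and 3 fell in E3, and 1 rose in E5. Their medians were -0.13 and -0.05.

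Among 27 genes of fatty acid elongation, activation and glycerolipid synthesis, 6 rose and 7 fell in E3, and 6 rose and 4 fell in E5, with medians of -0.02 and -0.06. Fads3, a desaturase-like gene beside Fads1 and Fads2 in the genome, fell in both clones. It was at 85.6, 94.9 and 93.1 CPM in WT, 33.2, 30.4 and 34.5 in E3, and 32.9, 37.1 and 38.7 in E5. The KO libraries did not overlap WT, and the log2 fold changes were -1.48 ± 0.10 and -1.33 ± 0.10 (edgeR adjusted p = 8.22e-06 and 8.36e-06). Elovl7, an elongase gene, fell in E3 (-2.99 ± 0.17, edgeR adjusted p = 2.95e-06) and was at 6.65 to 9.05 CPM in WT, 0.836 to 1.014 in E3 and 7.16 to 7.99 in E5. Its log2 fold change of E5 against E3 was 3.01 ± 0.17 (edgeR adjusted p = 7.86e-07). Plin2, which coats lipid droplets, was at 197 to 272 CPM in WT, 130 to 228 in E3 and 75.6 to 125 in E5, with a log2 fold change of -1.24 ± 0.23 in E5 (edgeR adjusted p = 0.00385). Elovl3 and Elovl4 were also lower DEGs in both clones, at 1.35 CPM or less in every library. With E3 replicate 3 left out, 8 rose and 8 fell in E3, and 9 rose and 7 fell in E5, beside shares of all genes of 21.8% and 21.5% in E3 and 20.8% and 21.2% in E5. With E5 replicate 3 left out, 4 rose and 6 fell in E3, and 5 rose and 4 fell in E5.

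Among 26 genes of sterol uptake, transfer and oxysterols, 23 were tested, and 4 rose and 4 fell in E3, and 2 rose and 4 fell in E5, counts not far from the shares of all genes. Stard5, a sterol-binding protein gene, had log2 fold changes of -2.05 ± 0.16 and -1.36 ± 0.16 (edgeR adjusted p = 2.14e-05 and 0.000184), from 8.09 to 9.72 CPM in WT to 2.01 to 2.26 in E3 and 2.71 to 3.96 in E5. Cyp27a1, which makes an oxysterol that activates LXR, was at 5.59 to 5.77 CPM in WT, 1.67 to 3.16 in E3 and 1.47 to 2.46 in E5. Its log2 fold changes were -1.14 ± 0.24 and -1.47 ± 0.25 (edgeR adjusted p = 0.0058 and 0.00207). Both genes were below WT in every KO library. Nceh1, named after its values were seen, encodes a cholesteryl ester hydrolase and had log2 fold changes of -0.97 and -0.81, and both passed. With E3 replicate 3 left out, 6 rose and 6 fell in E3, and 4 rose and 6 fell in E5. With E5 replicate 3 left out, 4 rose and 4 fell in E3, and 1 rose and 3 fell in E5.

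Some members share exon sequence with genes on the opposite strand in the GENCODE annotation, and the strand setting of the counting is not given in the sources used here. The largest shares were 24.8% of Fdft1 exon bases with Ctsb, 21.1% of Cyp51 with Akap9 and 20.5% of Mvd with Gm51557. Tm7sf2 shares 10.8% with Vps51 on the same strand. Reads of such pairs may not be separable, and the values of these members carry that limit.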

How the data were processed

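RNA-seq was analysed from 3 libraries each of LLC WT cells and of CD47 KO clones E3 and E5. The authors used FastQC, Trimmomatic and STAR on GRCm39 and deposited counts of reads for each gene in each library, not normalized. The counter, its annotation and its strand setting are not given in the sources used here. From the deposited counts, edgeR 4.0.16 in R 4.3.3 fitted the 3 lines in 1 model after TMM scaling, and the quasi-likelihood test was applied to 14593 genes that passed filterByExpr with a minimum of 10 and a total of at least 15. P-values were adjusted over all genes tested by the Benjamini-Hochberg method. A call needed an FDR under 0.05, and a DEG also an absolute log2 fold change above 1. CPM values are TMM-scaled, and library-level log2 values add 0.5 CPM. The SE was derived from each change and its F statistic. Depth leaves counting error small except for genes of few counts, where 3 counts per library was taken as the limit of a count of 0, which covers counting error only. Lengths are of canonical GENCODE vM39 transcripts.

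The members and lists were chosen with earlier results of these data known. Every member is named by role. Full values are given for DEGs and for the genes with the largest change that passed in each role and clone, and from each related list for at most 4 DEGs with an average log2 CPM above 1. 16 alternatives were run, including DESeq2 1.42.0, other scalings and filters, a replicate block and each library left out. The test of E3 against WT was checked on simulated counts of 14593 genes. It recovered 89 of 100 genes changed by 1 on the log2 scale and 100 of 100 changed by 2, with 22 false calls. The simulated libraries held no trend with transcript length and no shift shared by a group of genes. Some genes of the related lists are counted but not reported here by name.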

Additional observations from a re-analysis of the deposited data

Results flagged for a closer look

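The clones differed in 11 members in the edgeR test of E5 against E3 in the same model. Their changes against WT were therefore not the same size for these members. Of all genes tested, 14.7% were higher and 17.2% lower in E5 than in E3, so such differences were not particular to the members. In log2 fold change of E5 against E3, the mevalonate genes Acat2 and Mvk were at -0.75 and -0.56. The later sterol genes Cyp51, Hsd17b7, Sc5d and Dhcr7 were at -0.67, -0.76, -0.77 and -0.68. Among genes of trafficking and LXR signaling, Nr1h2 and Mylip were at -0.32 and -0.54. The fatty acid genes Fads1 and Acly were at -0.35 and 0.55, and Acly was the member higher in E5. Abca1 was at a fitted -7.71, where all E5 libraries had 0 counts. Against 3 counts per library in E5, the observed E3 mean was 8.92-fold higher. Of these, Sc5d and Mylip passed in each alternative that gave a value. Abca1 did so as well, but it was not tested in those that removed it as low. It passed the filter on low counts only through WT and E3, so its call is given as a description. Without E5 replicate 3, 4 members were lower in E5 and 1 was higher, against 12.5% and 10.3% of all genes.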

How the results depend on the processing

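Of 38 calls of single members across the 3 comparisons, 17 passed in each of the 16 alternatives that gave a value, 21 were lost in at least 1, and 0 changed direction. Among the 82 gene comparisons that did not pass, 20 changed sign under some alternative. The cause of the changes in counts was not tested, except that the fits with a library left out use fewer libraries. In E3 against WT, the members that fell (1) numbered 2 with DESeq2, 2 with no filter on low counts, and 0 with only the 2 groups compared. The shares of all genes that fell there were 16.7%, 8.36% and 11.2%. In E5 against WT, the members that rose (6) numbered 10 with DESeq2 and 16 with only the 2 groups compared. In these 2 fits, 11.2% and 23.5% of all genes rose. With no filter 4.55% rose, and with at least 10 counts in every library 8.64%. The cholesterol steps that rose in E5 (2) numbered 5 with DESeq2, 4 with no filter, 1 with at least 10 counts in every library and 7 with only the 2 groups. The members that fell in E5 (2) numbered 1 with at least 10 counts in every library and 4 with only the 2 groups. Of all genes, 9.85% and 23.3% fell in these fits. In E5 against E3, the members that were higher (1) numbered 2 with DESeq2, 2 with no filter and 0 with only the 2 groups. The shares of all genes were 17%, 8.24% and 9.79%. The members that were lower (10) numbered 5 with only the 2 groups, against 12.3% of all genes.

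When libraries were left out singly, the members that rose in E3 ranged from 11 to 22 and those that fell from 0 to 3. In the same fits, 9.57% to 21.8% of all genes rose and 9.71% to 21.5% fell. In E5, the members that rose ranged from 2 to 16, the cholesterol steps that rose from 0 to 7 and the members that fell from 1 to 4. Of all genes, 4.52% to 20.8% rose in E5 and 7.33% to 21.2% fell. In E5 against E3, the members that were higher ranged from 0 to 3 and those that were lower from 4 to 16. Of all genes, 9.74% to 22.4% were higher there and 11.9% to 21.7% lower. The members' median log2 fold change moved by less than 0.1444, the SD of their median between replicates, in every alternative. That SD comes from the same libraries, so the comparison is only a description. In E5 the median was 0.23 with all libraries, 0.09 without E5 replicate 1 and 0.34 without E5 replicate 3.

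With the replicate number as a block, 14 members rose in E3, 5 rose in E5 and 7 were lower in E5 than in E3. The shares of all genes were 12.6%, 6.56% and 14.3%. The block left Pmvk, Msmo1, Srebf1 and Scd2 without a call in E3, Srebf2 in E5, and Mvk, Nr1h2 and Fads1 in E5 against E3. Deviations of libraries with the same replicate number correlated from -0.31 to 0.14. Libraries with different numbers were not compared, so these values do not decide whether the numbers pair the libraries. Upper-quartile scaling moved the median of all genes in E5 against E3 from -0.01 to -0.10. Counting error limits Abca1 and Abcg1, and the spread between 3 libraries limits the others.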
